A study of Mus musculus with 4 samples.

Results

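Complement is a cascade of plasma and cell-surface proteins, and 9 of its genes were followed here through the cell types of the mouse ovary: C1qa, C1qb and C1qc, the chains of the recognition molecule C1q; C1ra and C1s1, the serine proteases that C1q carries; C4b and C3, the thioester proteins that the cascade cleaves; Serping1, the C1 inhibitor; and Cd55, decay-accelerating factor. The genes were picked by name from the complement system, and they are 9 of the 32285 genes counted. All 9 had UMIs (unique molecular identifiers, which count captured mRNA molecules) in all 4 single-cell libraries.

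In the classical pathway, C1q binds antibody complexes or altered cell surfaces, and the proteases C1r and C1s then cleave C4 and C2, which build an enzyme that cleaves C3. C1q is known to be made chiefly by tissue macrophages rather than by the liver, whereas fibroblasts and epithelia are known local sources of C1r, C1s, C3 and C1 inhibitor. CD55 sits on the cell surface and takes apart the C3-cleaving enzyme, and the C1 inhibitor blocks C1r and C1s, so both hold the cascade back.

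The libraries came from whole ovaries of 8-week-old female littermates. The 2 Fosl2F/F libraries are from mice whose Fosl2 alleles, coding for a subunit of the AP-1 transcription factor, are flanked by LoxP sites but which carry no Cre. The 2 Fosl2cKO libraries are from Cyp19a1-Cre; Fosl2flox/flox mice, so the floxed alleles are shared by every library and the groups differ in the Cre transgene. Cyp19a1, the aromatase gene, drives this Cre in granulosa cells, and Cre activity in macrophages, stroma and surface epithelium was not determined here. The labels do not say whether replicates are separate mice, so every p-value below measures only the spread between these libraries.

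The targeted gene did not separate the groups over all cells or over granulosa-like cells. In granulosa-like cells Fosl2 was at 161 and 167 CPM (UMIs scaled to a fixed total per class and library) in Fosl2F/F, against 167 and 115 CPM under the Fosl2cKO label, and over all cells it was at 171, 238, 235 and 175 CPM in the same order. The edgeR log2 fold change in granulosa-like cells was -0.25 (SE 0.20, adjusted p = 1.0). In luteal-like cells Fosl2 lay at higher values under the Fosl2cKO label without overlap (162 and 192 against 199 and 302 CPM), as for 29.4% of the genes tested there. In 4 granulosa subclasses it was at lower values under that label without overlap, as were 1766 of 11077, 1653 of 11853, 1490 of 12285 and 1038 of 8559 genes tested in them: mitotic-antral-like cells (103 and 117 against 90.7 and 81.1 CPM, edgeR log2 fold change -0.41, SE 0.17, adjusted p = 0.514) and unnamed granulosa clusters 4 (134 and 154 against 115 and 105 CPM, -0.45, SE 0.19, adjusted p = 0.681), 5 (120.4 and 142 against 107 and 114 CPM) and 10 (62.6 and 57.8 against 39.2 and 49.3 CPM). Where the 3′ tags fall relative to the deleted exons was not determined, so this value does not check the deletion, and the libraries are called by their labels throughout.

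After filtering, 8150, 19575, 6760 and 7053 cells were kept in Fosl2F/F 1, Fosl2F/F 2, Fosl2cKO 1 and Fosl2cKO 2, an order used for every set of 4 values below. Each library held 104303269 to 111314200 UMIs in these cells. Fosl2F/F 2 stood apart, with a median of 3655 UMIs per cell against 11177 to 12465 in the other libraries. Pairs of libraries shared 15 to 81 cell barcodes. Cells were clustered without the complement genes and named from marker genes: a class is called "-like" because the names rest on markers, and clusters that met no marker rule kept a number. Predicted doublets (412 to 4723 per library) had been removed. Named classes ranged from 143 B lymphocyte-like to 15759 granulosa-like cells. Oocyte-like cells had 18 cells in Fosl2cKO 2, short of the 20 per library asked for, and are left out of the levels by class.

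Positions are those of the GRCm38 build in the GENCODE annotation. C1qa (chr4:136895917-136898803), C1qc (chr4:136889804-136893065) and C1qb (chr4:136880129-136886187) lie side by side on the minus strand within 18.7 kb. C1ra (chr6:124512405-124523443, plus strand) and C1s1 (chr6:124530345-124542359, minus strand) lie within 29.96 kb. C3 is at chr17:57203970-57228136, C4b at chr17:34728380-34743882, Serping1 at chr2:84765387-84775444 and Cd55 at chr1:130439027-130462744, all on the minus strand. The near-identical neighbours C4a, C1rb, C1s2 and Cd55b, with which reads could be shared, had means of at most 0.45, 0.72, 0.45 and 1.37 CPM in any class. Whether reads of such pairs were split correctly was not tested.

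Promoter sequences from RefSeq (GRCm38.p6) were found for 6 of the 9 genes, and C4b, C1qa and Serping1 had no entry. The 250 bases before the start are printed for C1qb, C3 and Cd55, the members that mark macrophage-like, epithelial-like and B lymphocyte-like cells below. All 3 are written 5′ to 3′ on the gene's own strand, and capitals mark a PU.1 core (GAGGAA, either strand) or a C/EBP element (TTGCNNAA, either strand). PU.1 is the ETS factor of macrophages and B cells, and C/EBP factors are known for acute-phase genes.
C1qb (chr4:136886201-136886450, minus strand): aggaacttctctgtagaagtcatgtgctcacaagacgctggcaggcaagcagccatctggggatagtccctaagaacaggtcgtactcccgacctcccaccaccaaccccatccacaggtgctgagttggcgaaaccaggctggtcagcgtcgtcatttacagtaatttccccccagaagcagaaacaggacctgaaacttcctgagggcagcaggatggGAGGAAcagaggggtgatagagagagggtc
C3 (chr17:57228137-57228386, minus strand): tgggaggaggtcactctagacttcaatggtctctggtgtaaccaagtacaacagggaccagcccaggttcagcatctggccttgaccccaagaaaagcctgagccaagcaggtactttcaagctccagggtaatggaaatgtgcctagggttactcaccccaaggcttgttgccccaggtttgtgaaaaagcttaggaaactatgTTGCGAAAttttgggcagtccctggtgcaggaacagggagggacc
Cd55 (chr1:130462745-130462994, minus strand): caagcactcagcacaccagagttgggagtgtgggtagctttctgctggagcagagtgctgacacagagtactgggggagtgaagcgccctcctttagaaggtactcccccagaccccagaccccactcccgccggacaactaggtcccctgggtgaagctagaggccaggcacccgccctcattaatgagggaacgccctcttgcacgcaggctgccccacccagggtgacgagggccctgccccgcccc
The PU.1 core in C1qb lies 30 bases before the start that RefSeq gives, and the core is found in 23.3% of the 32851 promoter windows of this length. The C/EBP match in C3 lies 45 bases before the start, and 9.56% of all windows hold one. The Cd55 window holds neither. None of the members' windows holds the AP-1 element TGANTCA, which 6.75% of windows hold; the absence says only that these letters are not in these 250 bases.

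C1q, the recognition molecule, was carried by macrophage-like cells. In these 1303 cells C1qa stood at 2461, 3142, 2255 and 3036 CPM, C1qb at 2433, 3239, 2431 and 2830 CPM, and C1qc at 1931, 2571, 2243 and 2521 CPM. Dendritic-like cells, antigen-presenting cells that share a myeloid origin with macrophages, came next with means of 130 ± 79.6 CPM (SD, n = 4 libraries) for C1qa, 181 ± 58.1 CPM for C1qb and 105 ± 50.1 CPM for C1qc, and their ranges over libraries lay apart from those of macrophage-like cells. In all other classes with at least 20 cells in every library, the mean was at most 14.8 CPM for C1qa, 9.48 CPM for C1qb and 9.32 CPM for C1qc. The ranges of classes next to each other in that order overlapped, except for C1qc between epithelial-like cells (1.89 to 3.44 CPM) and B lymphocyte-like cells (listed at 0).

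Macrophage-like cells thus held 87.1% to 93.8% of all C1qa UMIs, 84.4% to 92.6% of C1qb UMIs and 87.5% to 93.4% of C1qc UMIs, per library. The UMIs of the 3 chains were in nearly equal parts there, with 32.5% to 36.2% from C1qa, 33.7% to 36.2% from C1qb and 28.3% to 32.4% from C1qc. Whether intronic reads were counted is not given in the sources used here, so UMI levels of different genes may depend on gene length. In granulosa-like cells, which are not a known source of C1q, 355 to 689 C1q UMIs per library were 28.5% to 35.1% C1qa, 35.6% to 41.7% C1qb and 23.2% to 34.0% C1qc. The ratio of C1q UMIs to the summed UMIs of the macrophage genes Csf1r, Lyz2, Ms4a7 and Mrc1 was 0.741, 1.01, 0.654 and 0.709 in granulosa-like cells and 0.649, 0.933, 0.516 and 0.838 in macrophage-like cells. The low C1q counts of granulosa-like cells thus came with macrophage transcripts, and whether free RNA supplied them was not tested.

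To compare shares of cells, each cell was thinned to 2000 UMIs, which left out 503, 3970, 289 and 298 shallower cells. A C1qa UMI was then found in 48.5%, 87.7%, 62.6% and 73.8% of macrophage-like cells, against 0.52%, 1.35%, 0.56% and 0.51% of granulosa-like cells, the class taken as background. The unthinned shares in macrophage-like cells were 48.8%, 76.5%, 69.8% and 74.8%, at median depths of 6023, 2277, 8364 and 7876 UMIs against 13684, 4593, 19209 and 18256 UMIs in granulosa-like cells. The groups overlapped, and the exact permutation test of the 4 shares gave p = 1.0, where 2 libraries against 2 cannot give a two-sided p under 0.333.

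The 3 chains went together within single macrophage-like cells. After thinning, all 3 were detected in 45.6%, 85.2%, 57.8% and 69.0% of macrophage-like cells, while none was detected in 44.4%, 7.52%, 24.6% and 18.7% of these cells with 2000 UMIs or more. Without thinning, over every cell of the class, none was detected in 45.8%, 17.1%, 23.3% and 18.4%. Cells with 1 chain (1.67% to 4.81%) or 2 chains (5.57% to 13.1%) were fewer. The share without C1q was highest in Fosl2F/F 1 and lowest in Fosl2F/F 2 both ways, so the groups overlapped.

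Cells of the macrophage-like class without C1q differed from cells with all 3 chains in other complement genes and in genes of monocytes, blood-borne precursors of macrophages. The genes compared were chosen after the split was seen, and no test was run between cells of the same class. The split came from a second random draw of 2000 UMIs per cell, in which 71, 29, 73 and 33 cells were without and 79, 300, 174 and 133 with all 3 chains. Levels were computed from every UMI of those cells, so the cells without C1q in the draw still had C1qb at 0, 0, 58.1 and 48.4 CPM. Plac8 averaged 1338 CPM (lowest library 607) without C1q and 48.1 CPM (highest library 65.1) with it, and the monocyte genes Ly6c2 (374 against 18.2 CPM) and Ccr2 (365 against 103 CPM) were ordered the same way. Ms4a7 (236 against 760 CPM), the engulfment receptor Mertk (109 against 317 CPM), the mannose receptor Mrc1 (130 against 437 CPM) and Apoe (7348 against 30072 CPM) were ordered the other way, and for each of these 7 genes the lowest library of one set lay above the highest of the other. Other macrophage genes did not follow this split: Lyz2 (10349 without against 9429 CPM with C1q), Fcgr1 (173 against 148 CPM) and Gpnmb (755 against 758 CPM) had overlapping ranges. Mmp12 averaged 914 CPM without and 485 CPM with C1q, higher without it in both libraries labelled Fosl2cKO and lower in both Fosl2F/F libraries. S100a9, a neutrophil and monocyte gene, was listed at 0 CPM in all cells with C1q and at 618, 0, 116 and 585 CPM in those without. With finer clusters and with no integration, unnamed clusters of 70 and 69 cells led by S100a9 and S100a8 formed outside the macrophage-like class. Their overlap with the cells without C1q was not determined.

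Among complement genes, C3 averaged 49.2 CPM in the macrophage-like cells without C1q and 20.7 CPM in those with it. It was higher without C1q in every library, at 64.9 against 33.1 CPM, 50.3 against 22.1 CPM, 63.9 against 16.4 CPM and 17.6 against 11.2 CPM. The sets without C1q were small in Fosl2F/F 2 and Fosl2cKO 2, with 29 and 33 cells. The lowest nonzero levels listed there were 12.6 and 4.40 CPM, so C3 without C1q rests on few UMIs in these libraries. The complement receptor subunits Itgam (191 against 93.7 CPM) and Itgb2 (236 against 128 CPM) followed C3. Cfp, properdin, the stabiliser of the alternative-pathway enzyme (124 against 220 CPM), and C3ar1, the receptor of the C3a fragment (139 against 234 CPM), followed C1q. Median depths were 2535 to 6072 UMIs without C1q and 3002 to 10616 UMIs with it.

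**Figure D1:**
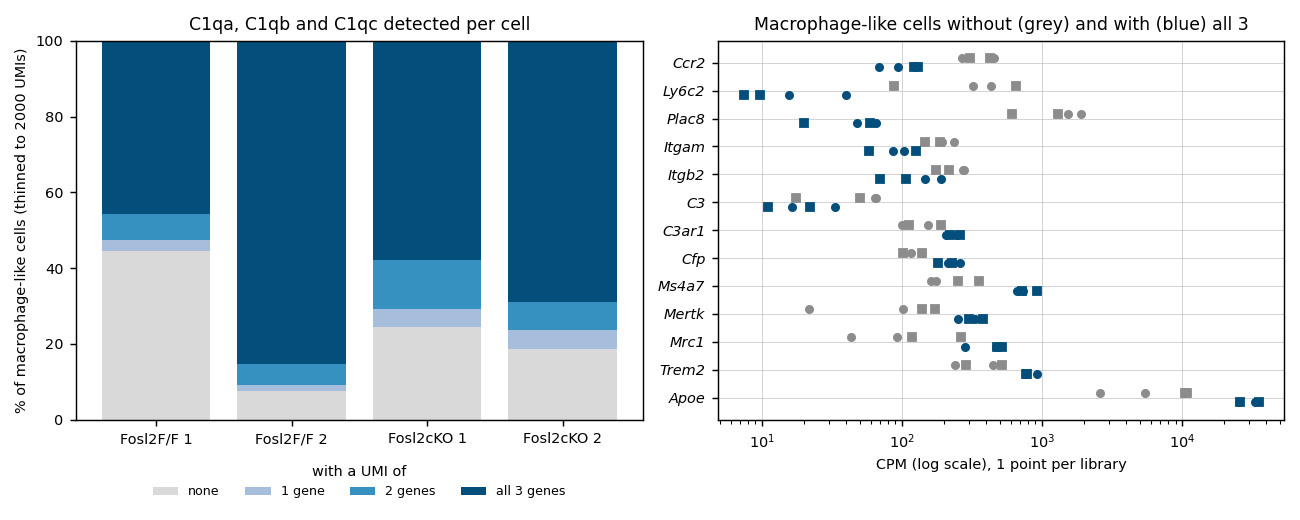
C1q within macrophage-like cells. Left, share of macrophage-like cells (%, thinned to 2000 UMIs) with a UMI of none, 1, 2 or all 3 of C1qa, C1qb and C1qc in each library. Right, CPM on a log axis of 13 genes in macrophage-like cells with none (grey) or all 3 (blue) of the chains, 1 point per library (circles replicate 1, squares replicate 2 of either group): Ccr2, Ly6c2, Plac8, Itgam, Itgb2 and C3 lie higher in the grey set on average, and C3ar1, Cfp, Ms4a7, Mertk, Mrc1, Trem2 and Apoe higher in the blue set.

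By likeness of pattern, Pearson's r of mean log2(CPM + 1) over 23 classes sharing the 4 libraries was computed for 11555 genes, as a description. The genes most like C1qa were Mmp12 (r = 0.99), Lyz2, C1qb, Ms4a7 and Clec5a, and those most like C1qb were Lyz2 (r = 1.0), C1qa, Clec5a, Gm5150 and Gm21188. C1qc was closest to C3ar1 (r = 0.97), followed by Gm21188, Igsf6, Clec4e and Clec5a.

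C1q levels in macrophage-like cells did not separate the groups. The edgeR log2 fold changes of the libraries labelled Fosl2cKO over Fosl2F/F were -0.12 (SE 0.26) for C1qa, -0.14 (SE 0.25) for C1qb and 0.05 (SE 0.26) for C1qc, with adjusted p of 0.979, 0.972 and 0.995. Of 9575 genes tested in macrophage-like cells 0.23% were called. A call asks for an adjusted p below 0.1 together with a log2 fold change beyond 0.25 in either direction.

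The proteases C1ra and C1s1 were highest in epithelial-like, stromal-like and pericyte or smooth muscle-like cells and unnamed cluster 2, and low in macrophage-like cells. C1s1 was at 167, 87.9, 133 and 108 CPM in pericyte or smooth muscle-like cells, at 131, 82.3, 161 and 111 CPM in epithelial-like cells and at 111, 81.0, 131 and 99.1 CPM in stromal-like cells. Their ranges overlapped, and also that of unnamed cluster 2 (mean 91.3 ± 9.54 CPM), led by Abcb1b, Hao2 and the steroid synthesis gene Star, which lay apart from the next class down at 52.1 CPM. Macrophage-like cells, the source of C1q, had C1s1 at 4.22 ± 1.35 CPM.

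C1ra had the same 4 leading classes at a lower level and in another order. It was at 38.4, 34.1, 50.5 and 45.2 CPM in epithelial-like cells, and the means in stromal-like cells (39.5 ± 6.64 CPM), unnamed cluster 2 (36.2 ± 5.08 CPM) and pericyte or smooth muscle-like cells (29.0 ± 8.11 CPM) overlapped with it. C1s1 was the gene most like C1ra over the 23 classes (r = 0.92), ahead of Hspb8, Meis1, Gabrb1 and Nipal2. C1s1 itself was closest to Meis1 (r = 0.96), Igfbp6, Tacc1, Nipal2 and Bicc1.

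Serping1, which codes for the inhibitor of these proteases, was highest in the same cells other than unnamed cluster 2. It reached 384, 307, 447 and 395 CPM in epithelial-like cells, 348, 254, 458 and 326 CPM in stromal-like cells and 374, 219, 343 and 256 CPM in pericyte or smooth muscle-like cells, 3 overlapping ranges. Unnamed cluster 1, led by Asb4 and Enpep, followed apart from them at 147 ± 48.3 CPM. The genes most like it over classes were Cdh11 (r = 0.93), Flnc, Casp12, Ltbp4 and Usp13. Unlike the proteases it was low in unnamed cluster 2, at 27.4 ± 8.61 CPM. Stromal-like cells held 33.9% to 47.6% of all Serping1 UMIs, and a UMI was found in 42.4% ± 5.98 of these cells after thinning (64.5% ± 18.4 unthinned) against 0.77% ± 0.56 of NK or T-like cells, the background class for genes of stroma.

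None of C1ra, C1s1 and Serping1 was called between the groups in any class. Their edgeR log2 fold changes lay between -0.88 and 0.58 over 14, 16 and 18 fits, and none had an unadjusted p under 0.05. In stromal-like cells they were 0.10 (SE 0.31), 0.23 (SE 0.32) and 0.35 (SE 0.34), each with an adjusted p of 1.0.

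C3, the protein on which all complement pathways meet, was highest in epithelial-like cells, which carry the surface epithelium's keratin and Upk genes. C3 stood there at 178, 180.1, 446 and 184 CPM, and its range lay above that of stromal-like cells, at 43.4, 36.3, 163 and 63.4 CPM. Fosl2cKO 1 was the highest library in both classes. Macrophage-like cells came next at 44.0, 27.0, 21.5 and 11.7 CPM, and unnamed cluster 2 was at 53.5, 4.47, 16.7 and 7.92 CPM, with Fosl2F/F 1 highest. The macrophage-like range overlapped with the stromal-like one. Granulosa-like cells had a mean of 0.75 ± 0.44 CPM.

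Epithelial-like cells held 28.6% to 54.4% and stromal-like cells 26.2% to 59.3% of all C3 UMIs. After thinning, a C3 UMI was found in 18.1%, 19.7%, 39.8% and 20.4% of epithelial-like cells against 0%, 0%, 1.07% and 0% of NK or T-like cells, and unthinned in 35.3%, 38.3%, 74.3% and 39.0%. The level of C3 over all cells was 8.46, 9.21, 32.7 and 9.76 CPM, so that Fosl2cKO 1 lay above the other libraries. In such sums over all cells, fewer cells of a type and less RNA per cell cannot be told apart.

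**Figure D2:**
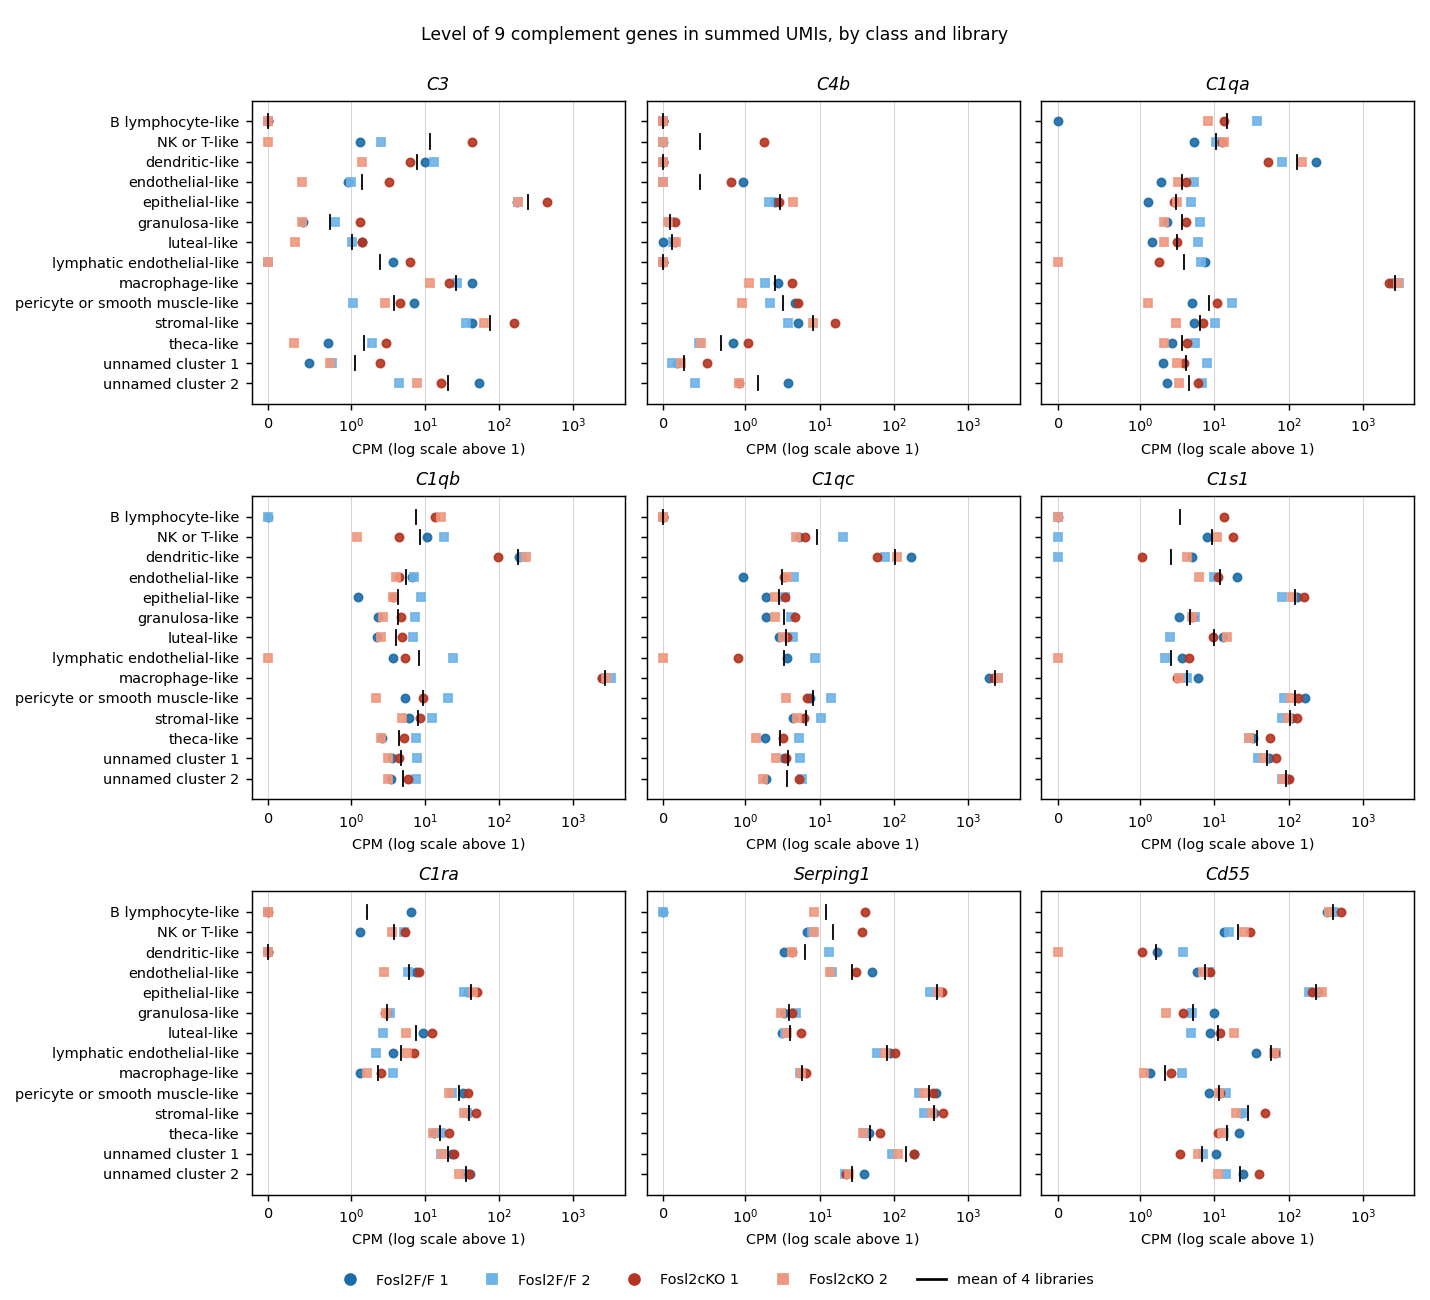
Level of the 9 genes by class and library. Each panel shows CPM of summed UMIs (linear below 1, log scale above) in 14 classes, with 1 point per library and a bar at the mean of the 4 libraries: C1qa, C1qb and C1qc peak in macrophage-like cells, C1s1, C1ra and Serping1 in epithelial-, stromal- and pericyte or smooth muscle-like cells, C3 in epithelial-like and Cd55 in B lymphocyte-like cells.

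Within the stroma, C3 belonged to 1 small cluster. Of 6295 stromal-like cells, 209 formed a cluster led by Gsn, Clec3b, Col14a1 and Dpt, genes known from adventitial fibroblasts. These cells (13, 63, 98 and 35 per library) had C3 at 1702, 1463, 1538 and 2098 CPM, whereas the other stromal-like cells had 14.2, 3.17, 14.1 and 7.82 CPM. Fosl2cKO 1 was not the highest library within the cluster, which carried 67.8%, 91.5%, 92.2% and 88.0% of stromal-like C3 UMIs. C3 had no part in the clustering, but the cluster was drawn from other genes of the same cells, so these are descriptions without a test.

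The Clec3b cluster made up 1.43%, 2.14%, 8.70% and 2.65% of stromal-like cells, and was thus most frequent in Fosl2cKO 1, the library with the highest stromal-like C3. C4b too had a higher level in the cluster, at 116, 18.6, 102 and 110 CPM there and 3.14, 3.45, 6.92 and 5.25 CPM in the other stromal-like cells. The cluster held 39.3%, 11.1%, 61.4% and 36.4% of stromal-like C4b UMIs, so most lay outside it except in Fosl2cKO 1. Cfb, factor B, the alternative-pathway protease that acts on C3, averaged 25.5 ± 23.0 CPM in the cluster and 0.30 ± 0.12 CPM in the other cells.

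The regulators and proteases were higher in the Clec3b cluster as well, with means of 1703 against 288 CPM for Serping1, 396 against 92.6 CPM for C1s1, 168 against 34.2 CPM for C1ra and 220.3 against 19.1 CPM for Cd55. For each of these 4 genes the lowest library in the cluster lay above the highest library in the other stromal-like cells. C1qa, C1qb and C1qc stayed near the background, at means of 2.61, 10.6 and 3.98 CPM in the cluster.

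**Figure D3:**
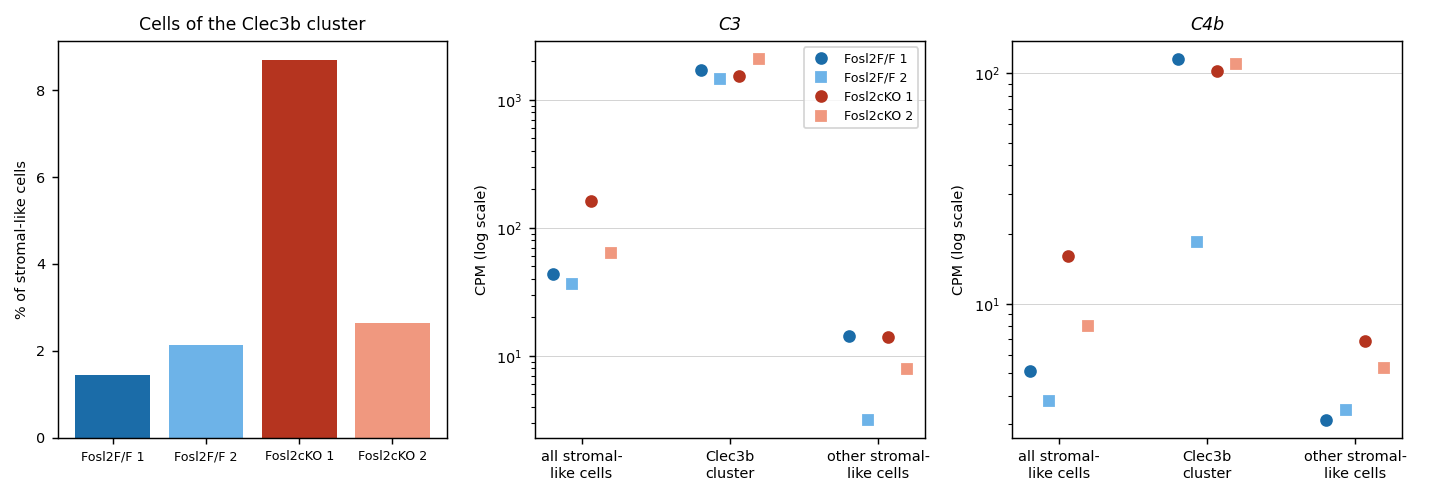
The Clec3b cluster of stromal-like cells. Left, its share of stromal-like cells (%, bars from 0) in each library, 8.70% in Fosl2cKO 1 and at most 2.65% in the other 3. Middle and right, C3 and C4b (CPM, log scale) in all stromal-like cells, in the cluster and in the other stromal-like cells, 1 point per library: C3 in the cluster is at 1463 CPM or more in every library.

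Between the groups, stromal-like C3 was higher in both libraries labelled Fosl2cKO (163 and 63.4 CPM) than in both Fosl2F/F libraries (43.4 and 36.3 CPM). This lack of overlap in that direction was shared by 14.3% of the 14121 genes tested in stromal-like cells. The edgeR log2 fold change was 1.48 (SE 0.38) with an adjusted p of 0.154, not past the threshold, in a class where 0.276% of genes were called and 2.53% were higher at an unadjusted p under 0.05. Without Fosl2cKO 1 the log2 fold change was 0.61 (edgeR adjusted p = 0.998), without Fosl2cKO 2 it was 2.02 (adjusted p = 0.000182), and with no filter on low genes it was 1.52 (adjusted p = 0.00181), so the call depended on 1 library and on the filter, and it also passed with no scaling (1.504, edgeR adjusted p = 0.0631).

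With the Clec3b cluster left out, a choice made after seeing the data, the difference in stromal-like C3 was 0.31 (SE 0.52, edgeR adjusted p = 1.0). The same exclusion gave 0.76 for C3 over all cells, against 1.19 with the cluster in. With 1 library left out, C3 over all cells ranged from 0.08, without Fosl2cKO 1, to 1.81. What set the cluster's frequency in each library was not tested. The summed level of 11 early-response and heat-shock genes, which dissociation is known to raise, was 13074, 15414, 16439 and 11438 CPM in stromal-like cells. The groups overlapped in this sum, while single genes had edgeR log2 fold changes from -0.59 (Hspa1a) to 0.88 (Dusp1), none called. Whether dissociation bore on C3 was not tested.

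C4b, the C4 of the classical pathway, was the member with the lowest level, with 58 to 233 UMIs per library. It was highest in stromal-like cells, at 5.09, 3.797, 16.2 and 8.03 CPM, a range that overlapped with pericyte or smooth muscle-like cells (4.61, 2.14, 5.10 and 0.96 CPM). Both libraries labelled Fosl2cKO lay above both Fosl2F/F libraries in stromal-like cells, the order that 14.3% of genes had there, with an edgeR log2 fold change of 1.43 (SE 0.43, adjusted p = 0.376). It was 0.85 (SE 0.45, edgeR adjusted p = 1.0) without the Clec3b cluster, 0.80 without Fosl2cKO 1 and 1.87 without Fosl2cKO 2. The threshold was passed in part of the alternative fits, counting those with 1 library left out. Over the 23 classes C4b was most like Ggt5 (r = 0.83), Aox3, Por, C3 and Fzd1, and C3 most like Xdh (r = 0.85), C4b, Ntng2, Gbp2 and Dio3.

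In epithelial-like cells C3 was also higher in both libraries labelled Fosl2cKO, at 446 and 184 CPM against 178 and 180.1 CPM, an order without overlap found for 14.9% of the genes tested there. The edgeR log2 fold change was 0.79 (SE 0.38, adjusted p = 1.0), in a class with 0.116% of genes called, and -0.05 without Fosl2cKO 1. In macrophage-like cells the order was the reverse, 21.5 and 11.7 CPM in the libraries labelled Fosl2cKO against 44.0 and 27.0 CPM, as for 16.1% of genes, with a log2 fold change of -1.08 (SE 0.40, edgeR adjusted p = 0.737). With 1 library left out, the log2 fold change ranged from -1.68 to -0.59. It was -1.44 without Fosl2F/F 2, and the -0.59 was without Fosl2F/F 1. This macrophage-like difference, too, passed the threshold in part of the alternative fits, counting those with 1 library left out. The macrophage-like cells without C1q, where C3 was higher, made up 45.8%, 17.1%, 23.3% and 18.4% of the class without thinning, and their part in the difference was not tested. Their C3 level rested on few UMIs in Fosl2F/F 2 and Fosl2cKO 2.

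The difference between the macrophage-like and the stromal-like effect on C3, tested within libraries with limma, was -2.43 on the log2 scale (SE 0.33, adjusted p = 0.632 over 9162 genes), and no gene was called in that test. At an unadjusted p under 0.05 there were 317 genes.

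Cd55, which protects cells from complement on their surface, had a distribution of its own. It was highest in B lymphocyte-like cells, at 331, 411, 504 and 349 CPM from 50, 11, 37 and 42 UMIs, and next in epithelial-like cells, at 248, 190.1, 210 and 283 CPM. These ranges lay apart from each other and from that of lymphatic endothelial-like cells, at 36.9, 67.7, 66.0 and 63.8 CPM. Stromal-like cells followed at 28.7 ± 13.3 CPM, of which the Clec3b cluster held 11.98% to 59.8%.

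After thinning, a Cd55 UMI was found in 50.0%, 61.9% and 56.8% of B lymphocyte-like cells in the libraries other than Fosl2F/F 2, where no such cell had 2000 UMIs, in 33.3% ± 6.68 of epithelial-like cells over all 4 libraries and in 0.38% ± 0.44 of macrophage-like cells. Unthinned, the shares of B lymphocyte-like cells were 69.4%, 36.4%, 77.8% and 55.6%. Macrophage-like cells, rich in C1q, had Cd55 at 1.12 to 3.68 CPM. Epithelial-like cells held 22.7% to 36.6% of all Cd55 UMIs, and the genes most like Cd55 were Gm15675 (r = 0.94), Eps8l1, Atl3, Mfap1a and Ganc. Epithelial-like cells thus led, or came among the first 3 classes, for C3, C4b, C1s1, C1ra, Serping1 and Cd55.

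In granulosa-like cells, the cells in which Cyp19a1 drives Cre, Cd55 was the only member with a lower level in both libraries labelled Fosl2cKO and an unadjusted p under 0.05. It stood at 9.74 and 4.93 CPM in Fosl2F/F, against 3.72 and 2.25 CPM under the Fosl2cKO label, an order without overlap that 14.5% of the genes tested there shared. The edgeR log2 fold change was -1.35 (SE 0.43, adjusted p = 0.979). In this class 0.00579% of genes were called, and 1.96% were lower at an unadjusted p under 0.05. Without Fosl2F/F 1 the log2 fold change was -0.70. With no filter on low genes it was -1.36 (edgeR adjusted p = 0.0747), a setting that raised calls over all genes from 222 to 6118.

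Among the subclasses, Cd55 had its highest mean in mural-like cells, the Lhcgr-bearing cells of the follicle wall, at 29.2, 9.93, 11.5 and 7.98 CPM, where the groups overlapped. The range overlapped with that of unnamed granulosa cluster 9, at 11.4, 5.89, 14.3 and 11.9 CPM, which had the higher mean of these 2 subclasses with Fosl2F/F 1 left out. Mural-like cells were 22.9% of granulosa-like cells in Fosl2F/F 1 and 7.47%, 11.5% and 5.75% in the others. Fosl2F/F 1 had both the highest granulosa-like Cd55 and the largest mural-like share, and the part of this share in the Cd55 level was not tested. In mitotic-like cells Cd55 was at 5.89 and 3.78 against 2.27 and 0.90 CPM (edgeR log2 fold change -1.64, SE 0.48, adjusted p = 0.514), where 16.7% of genes were lower without overlap. With 1 library left out, the log2 fold change there ranged from -2.43, without Fosl2cKO 1, to -1.15. With no filter on low genes it passed the threshold (-1.63, edgeR adjusted p = 0.00422), a setting that raised calls over all genes from 222 to 6118. In unnamed granulosa cluster 4, led by Grem1, Nap1l5 and Kcne2, Cd55 was at 10.1 and 5.87 against 0.75 and 2.98 CPM. The 0.75 CPM is near the floor, and 1653 of 11853 genes were lower without overlap there. The edgeR log2 fold change was -2.15 (SE 0.59, adjusted p = 0.461). With 1 library left out it ranged from -3.48, without Fosl2cKO 2, to -1.48. With no filter on low genes it passed as well (-2.17, edgeR adjusted p = 0.000583).

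In atretic-like cells Cd55 did not separate the groups, at 3.75 and 9.11 against 6.36 and 3.78 CPM. In mural-like cells the log2 fold change was -1.10 (SE 0.47, edgeR adjusted p = 1.0) against -0.06 without Fosl2F/F 1 and -1.44 without Fosl2cKO 1. The difference between the stromal-like and the granulosa-like effect on Cd55 was 1.65 (SE 0.43, limma adjusted p = 1.0).

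**Figure D4:**
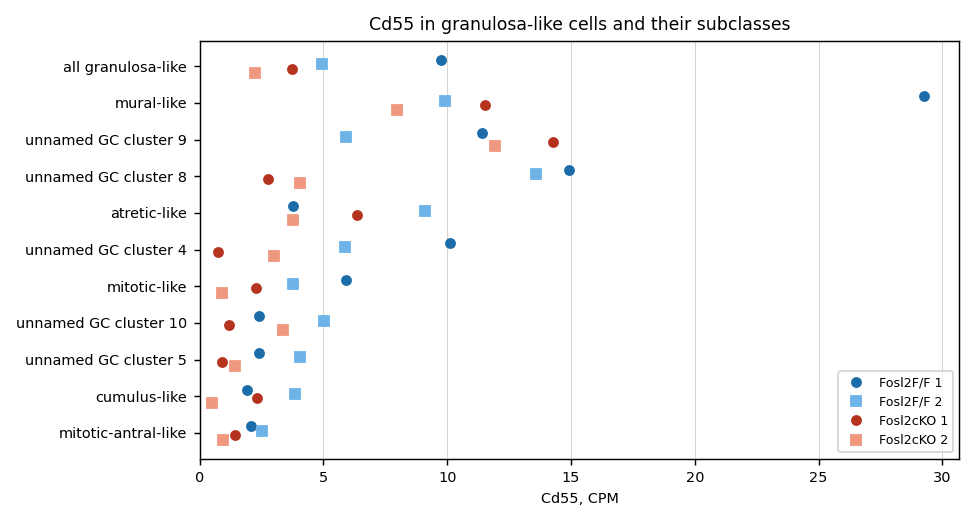
Cd55 in granulosa-like cells and 10 of their subclasses. The horizontal axis is CPM of summed UMIs, with 1 point per library: mural-like cells of Fosl2F/F 1 stand highest at 29.2 CPM, and in mitotic-like cells, where 16.7% of genes had this order, both Fosl2F/F libraries lie above both libraries labelled Fosl2cKO.

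Outside granulosa-like cells, Cd55 differed in sign between classes. It was lower without overlap in theca-like cells (21.4 and 13.6 against 11.1 and 12.8 CPM), as 9.89% of genes were there, and higher without overlap in luteal-like cells (8.84 and 4.83 against 11.9 and 18.6 CPM), as 29.4% of genes were. NK or T-like cells had 13.4 and 15.6 against 29.8 and 25.4 CPM, an order found for 23.1% of genes. The edgeR log2 fold changes of the 3 classes were -0.64, 1.07 and 0.89, with adjusted p of 1.0, 0.478 and 0.570. In unnamed cluster 1 it was -0.97 (SE 0.41, edgeR unadjusted p = 0.0371) and not called. There 209 of 13587 genes were lower at an unadjusted p under 0.05.

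Taking all 9 genes, 131 fits over 23 sets of cells (classes, and all cells together) were made, and edgeR called none at an adjusted p under 0.1, nor did DESeq2. At an unadjusted edgeR p under 0.05 there were 13 of 131 (9.92%), 3 of them with Fosl2cKO higher and 10 with it lower, beside 5.46% of all edgeR fits of all genes. Of the edgeR fits of all genes 0.0782% were called. DESeq2 had 9 member fits at an unadjusted p under 0.05, and its share over all genes is not given here. The median log2 fold change over the members' fits was -0.12, and the 13 included 6 for Cd55, 2 for C3, 2 for C4b and 1 for each C1q chain. The fits share cells, since subclasses lie within granulosa-like cells, and are not independent.

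**Figure D5:**
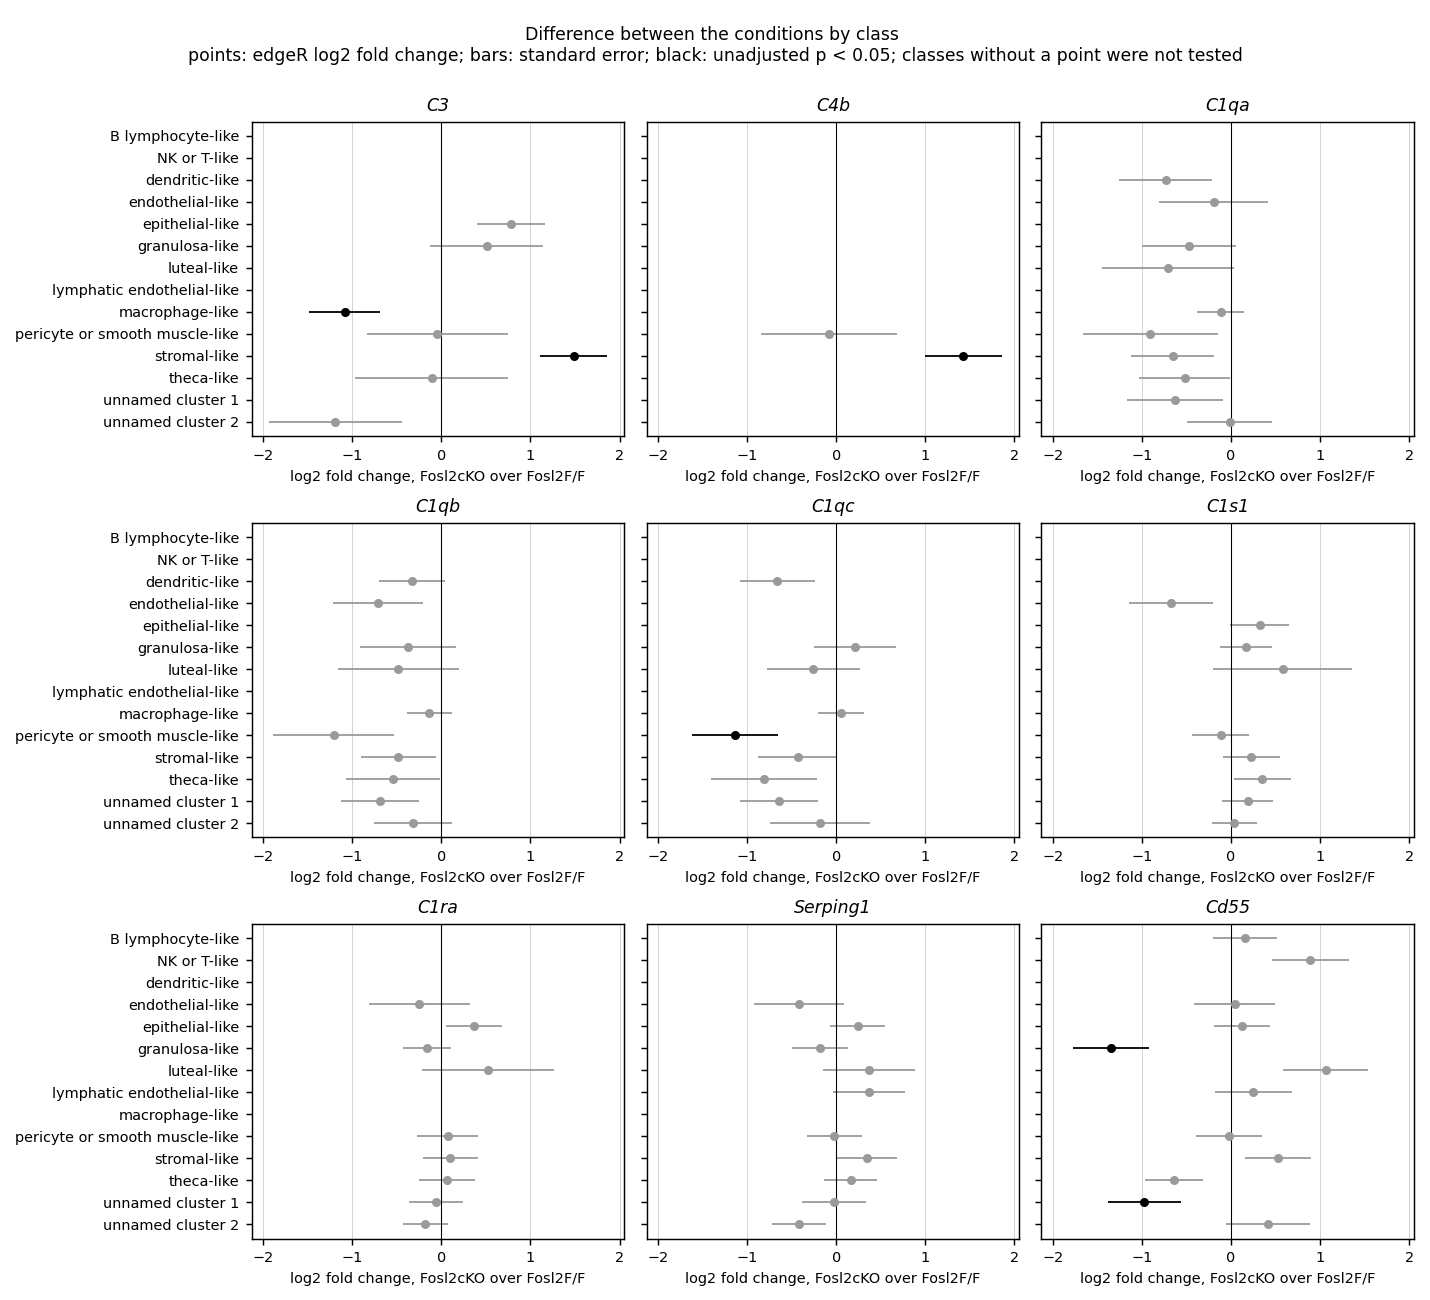
Difference between the groups for each of the 9 genes by class. Points are edgeR log2 fold changes of the libraries labelled Fosl2cKO over Fosl2F/F, bars are 1 standard error, black marks an unadjusted p under 0.05, and a class without a point was not tested: black points are seen for C3 (macrophage-like, -1.08, and stromal-like, 1.48), C4b (stromal-like, 1.43), C1qc (pericyte or smooth muscle-like, -1.14) and Cd55 (granulosa-like, -1.35, and unnamed cluster 1, -0.97), none past the adjusted threshold.

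The wider complement list, set by role, held 50 more genes, of which 42 were tested in at least 1 class. Csmd1, a membrane regulator, was at 463 and 150 against 163 and 116 CPM in B lymphocyte-like cells, so the groups overlapped. It was called lower there (edgeR log2 fold change -1.57, SE 0.44, adjusted p = 0.0848), in a class where 1.97% of genes were called. That class had 22 to 49 cells per library, and DESeq2 called no gene in it.

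By level, the early classical and lectin genes were led by Colec12, a scavenger receptor with a collectin domain (244 ± 22.1 CPM, stromal-like), and C2, the partner of C4 (124 ± 17.9 CPM, unnamed cluster 2). The next classes were close, with Colec12 at 223 CPM in lymphatic endothelial-like and C2 at 107 CPM in epithelial-like cells. Of the alternative pathway, Cfp stood at 186 ± 14.8 CPM in macrophage-like cells and nearly as high, at 177 CPM, in dendritic-like cells. The terminal pathway was sparse, with C7 at 24.9 ± 8.44 CPM in theca-like cells and Hc, complement C5, at 22.5 ± 15.6 CPM in stromal-like cells.

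Among soluble regulators, Clu, clusterin, stood at 1460 ± 1526 CPM in luteal-like cells, where its SD exceeded its mean. Csmd1 (2563 ± 1476 CPM, atretic-like) and Cr1l (104 ± 10.9 CPM, endothelial-like) led the membrane regulators, and Cd93 (603 ± 135 CPM, endothelial-like) and C5ar1 (295 ± 108 CPM, macrophage-like) the receptors. Csmd1 was also at 2132 CPM in stromal-like and Cr1l at 82.3 CPM in NK or T-like cells.

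Of the 375 fits of the wider list, 47 (12.5%) had an unadjusted p under 0.05, beside 5.46% of all fits of all genes. Receptor genes accounted for 22 of the 47, all higher in the libraries labelled Fosl2cKO. All 22 were of C1qbp, a mitochondrial protein that also binds C1q and is in the list by that name. Over all cells C1qbp was at 80.9 and 111 against 197 and 228 CPM (edgeR log2 fold change 1.09, SE 0.21, adjusted p = 0.564). This order without overlap was shared by 3874 of 20308 genes. C1qbp was not called in any class. Of the 19 fits that were lower, 8 were of Masp1, a protease of the lectin pathway. Masp1 was at 99.1 and 42.2 against 27.3 and 31.9 CPM in granulosa-like cells (edgeR log2 fold change -1.30, SE 0.41, adjusted p = 0.979) and at 214 and 107 against 44.7 and 68.9 CPM in mural-like cells (-1.58, SE 0.36, adjusted p = 0.416), and it was not called in any class. The order of Masp1 without overlap was shared by 14.5% of genes in granulosa-like cells and by 1394 of 11972 in mural-like cells. C1qbp and Masp1 were singled out after their values were seen.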

How the data were processed

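Whole ovaries were profiled with 10x 3′ single-cell RNA-seq in 4 libraries, 2 per genotype. The authors deposited UMI counts per gene and barcode, aligned to GRCm38. The deposited counts are whole numbers and not normalised, and Cell Ranger and Seurat 4.1.0 stand in the submitters' processing notes. The file headers and the study's methods name different versions of Cell Ranger. The methods also name CellBender, and the sources used here do not say whether the deposited counts passed through it.

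A barcode was kept as a cell if it held 500 genes or more and over 1000 UMIs, of which less than 10% were mitochondrial and less than 0.1% haemoglobin. Doublets were scored with Scrublet in scanpy 1.11.5, at 0.8% per 1000 cells. Clustering used Seurat 5.3.0 and sctransform 0.4.2 with 3000 features, without the complement genes, 30 dimensions and resolutions of 0.8 (granulosa-like cells 0.5). Names of clusters came from lists of markers, and the score limits of that naming (0.2, a lead of 0.1, 3 markers, 0.4 for granulosa subclasses) were set after the clusters were seen. The members and lists were chosen with earlier results of these data known.

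UMIs were summed per library and class with at least 20 cells in each library. They were tested with edgeR 4.0.16 (quasi-likelihood, TMM, low genes filtered, Benjamini-Hochberg over all genes of a class), and calls needed an adjusted p below 0.1 together with a log2 fold change beyond 0.25 in either direction. DESeq2 1.42.0 was an alternative, limma 3.58.1 tested differences between classes, and scipy 1.17.1 gave exact permutation tests. CPM values are UMIs scaled to the total of a class in a library. Named genes are the 9 members, wider-list genes that were called or highest in their role, and the 5 most alike genes of a member. Results of 1 gene of the wider list are not reported here. Further alternatives changed the scaling, filter, clustering, doublets, depth and libraries used. Data were simulated with 200 genes changed 2-fold, all drawn from genes above 20 CPM. In them edgeR recovered 12.5% in macrophage-like, 28.5% in stromal-like and 72.0% in granulosa-like cells (9282, 13811 and 16956 genes). Member means in granulosa-like cells were at most 5.16 CPM, so the 72.0% does not cover them.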

Additional observations from a re-analysis of the deposited data

Results flagged for a closer look

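C3 differed in sign between classes, without overlap of the groups. Its edgeR log2 fold change was 0.79 in epithelial-like cells and 1.48 in stromal-like cells, both higher in the libraries labelled Fosl2cKO, and -1.08 in macrophage-like cells, with adjusted p of 1.0, 0.154 and 0.737. The same order without overlap was found for 14.9%, 14.3% and 16.1% of genes in these classes, and the epithelial-like value was -0.048 without Fosl2cKO 1. The difference between the macrophage-like and the stromal-like effect was -2.43 (limma, SE 0.33, adjusted p = 0.632), and the difference between epithelial-like and macrophage-like cells was not tested.

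Cd55 was likewise higher without overlap in NK or T-like cells (0.89) and luteal-like cells (1.07) and lower in theca-like cells (-0.64). No fit passed (edgeR adjusted p = 0.570, 0.478 and 1.0), and 23.1%, 29.4% and 9.89% of genes had the same order in these classes. The differences between them were not tested.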

How the results depend on the processing

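The count of 0 members called by edgeR became 1 with no scaling (C3 in stromal-like cells, chosen after seeing the data) and 9 with no filter on low genes. It was 0 under the other alternatives that kept all libraries. The numbers of genes tested under these settings are not given here, so these counts cannot be read against a rate. Over all genes, 222 calls became 103 at an adjusted p under 0.05, 6118 with no filter, 595 with a replicate block, 1682 with DESeq2 and 583 to 3031 with 1 library left out. Without the Clec3b cluster, where only stromal-like cells and all cells were refitted, 31 genes were called against 40 in the same sets. The members' calls stayed at 0 under the block. Replicate numbers share only a number here: deviations of same-numbered libraries correlated at -0.29 to 0.11 over classes.

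Some log2 fold changes changed sign, with no value past the threshold and the cause not tested. With doublets kept, C1qa and C1qb in macrophage-like cells were at 0.32 and 0.27, and over 2000 UMIs C1qc was at -0.047. Without the Clec3b cluster, C1ra and Cd55 in stromal-like cells were at -0.11 and -0.13. With 1 library left out, the ranges that crossed 0 in macrophage-like cells were -0.30 to 0.049 for C1qa (Fosl2cKO 1 decides), -0.26 to 0.0039 for C1qb (Fosl2F/F 2) and -0.073 to 0.19 for C1qc (Fosl2F/F 1). In stromal-like cells they were -0.23 to 0.37 for C1ra, -0.019 to 0.53 for C1s1 and -0.30 to 1.06 for Cd55, each below 0 without Fosl2cKO 1. In epithelial-like cells they were -0.048 to 1.30 for C3 (Fosl2cKO 1) and -0.068 to 0.31 for Cd55, which was also -0.053 without Fosl2F/F 2. Of 302 settings with all libraries 290 kept direction and side of the threshold, 7 passed it and 5 changed sign, and of 92 with 1 library left out the counts were 76, 7 and 9.

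With 1 library left out, 8 to 9 members kept their highest class by level, and 6 to 9 the class with most UMIs. C4b, with 58 to 233 UMIs per library, and the 22 to 49 B lymphocyte-like cells set the limits of depth.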
